A study of Rattus norvegicus with 24 samples.

Results

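The microRNA miR-217-5p was followed in rat serum, as the entry whose name in the deposited count and normalized tables is rno-miR-217-5p. It is 1 of 753 miRNA names in the tables, of which 440 had a count in at least 1 library and 136 were abundant enough to be tested. It was selected on its measured level in these libraries, which was higher on fish oil than on the normal diet. Small RNA was sequenced from 100 µl of serum per rat, drawn from the abdominal aorta of male Wistar Kyoto rats that entered the study at 4 weeks of age. The groups crossed diet and exposure over an 8-week feeding period, and the labels name no genetic change. Rats fed chow with 6% fish oil by weight breathed 0.8 ppm ozone (fish oil ozone, 5 libraries) or filtered air (fish oil air, 6 libraries), and rats on the facility's normal chow breathed ozone (normal ozone, 6 libraries) or filtered air (normal air, 6 libraries). Exposures lasted 4 h on each of 2 days. The labels describe 24 samples, and 1 of them, replicate 2 of the fish oil ozone rats, was not analysed here. The fish oil chow was a custom diet and no diet with another oil was used here, so the oil cannot be told apart from other differences between the diets. The labels say that rats shared cages in pairs but not which rats, so cage effects were not tested.

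MicroRNAs are short RNAs cut from hairpin precursors that pair through their seed, bases 2 to 8, with messenger RNAs and lower their output. In mammals miR-217 is made with miR-216a and miR-216b from one chromosomal cluster, and this cluster is most active in the acinar cells of the exocrine pancreas, which secrete digestive enzymes. Circulating miR-217 and miR-216a have been studied in rats as blood markers of acinar cell damage. Other cells, among them human endothelial cells in culture, can also make miR-217, so its presence in serum does not name a source. In serum, as in any bulk sample, more releasing cells and more RNA released per cell cannot be told apart.

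The cluster was placed by the files on chromosome 14 of rat build rn5, with miR-217-5p from 112809693 to 112809715, miR-216a-5p from 112802280 to 112802302 and miR-216b-5p from 112790805 to 112790827. Start and end differ by 22 and the mature RNA is 22 bases long, so one end of the interval lies outside the RNA, and the files do not say which. No miRNA of the table outside this cluster lay within 50 kb of miR-217-5p. All 6 cluster names were matched in RefSeq (GRCr8, plus strand). The mature 5p RNAs are shown to compare what each can target, with the seed in capitals.
miR-217-5p: uACUGCAUcaggaacugacugg
miR-216a-5p: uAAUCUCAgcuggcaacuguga
miR-216b-5p: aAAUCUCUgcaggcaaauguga
The seeds of miR-216a-5p and miR-216b-5p match at 6 of 7 positions, whereas those of miR-217-5p and miR-216a-5p match at 2 of 7. No other mature rat miRNA in the RefSeq table has the seed of miR-217-5p. The nearest whole sequence among the 692 others, miR-324-3p, is 7 edits away, so no near-identical copy is listed that could share its reads. The hairpin is shown because its 2 arms were counted separately, and the capitals mark the 5p arm and then the 3p arm.
Mir217 hairpin: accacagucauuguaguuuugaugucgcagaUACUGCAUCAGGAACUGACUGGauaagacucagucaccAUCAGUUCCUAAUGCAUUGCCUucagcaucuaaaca
The 5p arm received 322 counts over the 23 libraries and the 3p arm received 0, which allows the 3p arm up to 0.932% of the hairpin's reads.

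Serum miR-217-5p was scarce. Libraries held 23276 to 94264 miRNA counts each, and miR-217-5p had a mean of 14 counts per library, which placed it at rank 108 of the 136 tested miRNAs by mean level. Levels are miRNA counts scaled to CPM, with library sizes adjusted by TMM, the trimmed mean of log ratios between libraries. The detection floor was set at 3 counts, which equalled 28.3 to 117 CPM depending on the library. Intervals and floors given here cover counting error only, not the spread between rats. PCR copies were not marked and reads are thus not independent molecules, so the intervals may be too narrow even for counting error.

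Fish oil libraries held most of the miR-217-5p reads. In fish oil ozone the 5 libraries (replicates 1, 3, 4, 5 and 6) had 33, 18, 28, 11 and 3 counts, or 1016, 592, 630, 428 and 91.1 CPM. In fish oil air the counts were 0, 11, 10, 10, 49 and 91 for replicates 1 to 6. The CPM ran from 0 in replicate 1 through a median of 338 to 1450 in replicate 6. Replicate 1 of fish oil air was the only fish oil library with no read, and its exact Poisson interval (95%) reached 102 CPM.

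On the normal diet the RNA stayed near or under the floor in all but a few libraries. Counts in normal ozone were 0, 0, 4, 4, 31 and 7, and the CPM ran from 0 through a median of 52.8 to 485 in replicate 5. Counts in normal air were 1, 0, 3, 3, 1 and 4, and the CPM ran from 0 through a median of 30.7 to 80.7. At least 10 counts were reached in 9 of 11 fish oil libraries and in 1 of 12 normal diet libraries, normal ozone 5. The miRNA therefore passed the low-count filter through its fish oil libraries.

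**Figure D1:**
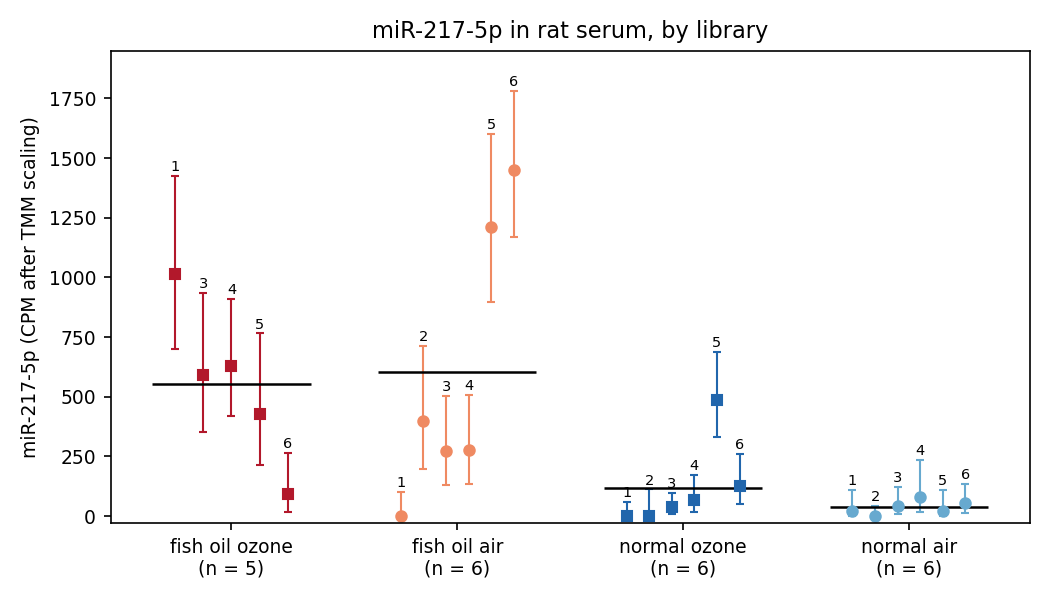
Level of miR-217-5p in each library, in CPM after TMM scaling on a linear axis; points are libraries labelled by replicate number, bars are exact 95% Poisson intervals of the count, and black lines are group means. Fish oil libraries reach 1450 CPM, while among normal diet libraries only normal ozone 5, at 485 CPM, lies above 126 CPM.

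The mean level was 551 ± 336 CPM in fish oil ozone (SD, n = 5), 602 ± 585 CPM in fish oil air (n = 6), 119 ± 185 CPM in normal ozone (n = 6) and 35.7 ± 28.8 CPM in normal air (n = 6). In descending order of mean the groups are thus fish oil air, fish oil ozone, normal ozone and normal air. The first 2 means differ by less than the SD of either group. The last 2 differ by less than the SD of normal ozone but by more than that of normal air. Groups overlapped in each comparison. In air, 5 of 6 fish oil libraries lay above every normal diet library, and the sixth lay at 0. In ozone, 3 of 5 fish oil libraries lay above every normal diet library, and without normal ozone 5 only fish oil ozone 6, at 91.1 CPM, would fall below the next normal diet library at 126 CPM.

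The diet difference, on which the miRNA was selected, is given as a description with no test. In the edgeR fit of all 136 miRNAs, fish oil minus normal diet was +3.14 on the log2 scale averaged over exposures (SE 0.64), an 8.82-fold higher level. It was +4.13 (SE 0.95) in air and +2.15 (SE 0.84) in ozone. The median of the 136 miRNAs was +0.06, +0.08 and +0.0009 in the same contrasts. Each of the 3 values was the highest among the 136 miRNAs, and each SE was the highest as well. For the average over exposures the next highest value was that of miR-10b-5p, +1.41 (SE 0.34), from a mean of 8.48 counts. In the same fit 36.8% of tested miRNAs passed an adjusted p of 0.05 (Benjamini-Hochberg) for the average over exposures, 19.9% higher and 16.9% lower on fish oil. In air 5.88% passed, 0.735% higher and 5.15% lower, and in ozone 22.8% passed, 12.5% higher and 10.3% lower. All 136 miRNAs, miR-217-5p included, are counted in these shares and in later shares of the 136, so nothing about miR-217-5p is read from them.

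Normal ozone 5 weighed most on the diet value in ozone and on the average. Without it the ozone value was +3.47 and the average +3.80. Fish oil air 6, the highest library, weighed most on the value in air, which was +3.60 without it. A single library also supplied much of each sum: fish oil air 6 held 53.2% of the 171 reads of its group, fish oil ozone 1 35.5% of 93, normal ozone 5 67.4% of 46, and normal air 6 33.3% of 12.

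The direction by diet was the same on each scaling run. Fish oil libraries gave fewer miRNA counts, 33302 ± 7385 in fish oil ozone (SD, n = 5) and 37262 ± 11332 in fish oil air (n = 6), against 63357 ± 20129 in normal ozone (n = 6) and 65638 ± 15675 in normal air (n = 6), yet their raw miR-217-5p counts were higher. The summed count was 264 on fish oil and 58 on the normal diet. With the authors' own scaling, RPM, which divides by a larger read total, the mean was 4.80 ± 3.21 in fish oil ozone, 4.58 ± 4.93 in fish oil air, 2.56 ± 4.23 in normal ozone and 0.491 ± 0.449 in normal air. With that larger total as the library size in edgeR, the values were +2.17 averaged over exposures, +3.36 in air and +0.98 in ozone. On that scale the median of all 136 miRNAs was −0.87, −0.78 and −0.96, so miR-217-5p lay 3.04, 4.15 and 1.94 above the median. Subtracting the median largely undoes a change of library size, so these 3 differences are no check on the scaling.

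Ozone did not change miR-217-5p past the threshold on either diet. On fish oil, ozone minus air was −0.16 (SE 0.78, edgeR adjusted p = 0.983), with a sign that was not stable. It was positive in 4 of 11 other settings and tests, and in 3 of 23 fits with 1 library left out. Among the former were +0.03 with the larger read total and +0.34 as the difference of mean log2 CPM. No fish oil ozone library lay above the highest fish oil air library. On the normal diet, ozone minus air was +1.82 (SE 1.02, edgeR adjusted p = 0.939, unadjusted p = 0.0875), with 2 of 6 ozone libraries above every air library. Without normal ozone 5 that value was +0.52 (edgeR adjusted p = 0.966). Exact permutation tests on mean log2 CPM (two-sided, adjusted over the 2 tests) gave p = 0.734 on fish oil and p = 0.734 on the normal diet. Averaged over diets the value was +0.83 (SE 0.64, edgeR adjusted p = 0.818), and it was +0.19 without normal ozone 5.

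Whether the ozone response differed between diets was also tested. The ozone effect on fish oil minus that on the normal diet was −1.98 (SE 1.28, edgeR adjusted p = 0.916), and −0.67 without normal ozone 5. It equals the diet value in ozone minus that in air, and the miRNA was selected on its diet difference. Its p is therefore not free of that selection. With SEs of this size, a p above the threshold does not show that ozone left the level unchanged. Across all 136 miRNAs edgeR called 0 for ozone on the normal diet, 0 for ozone on fish oil and 0 for the interaction, against 4, 10 and 6 at an unadjusted p below 0.05. DESeq2 called 1, 0 and 0, its 1 being miR-22-3p, and limma on log2 RPM called 0 in each.

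**Figure D2:**
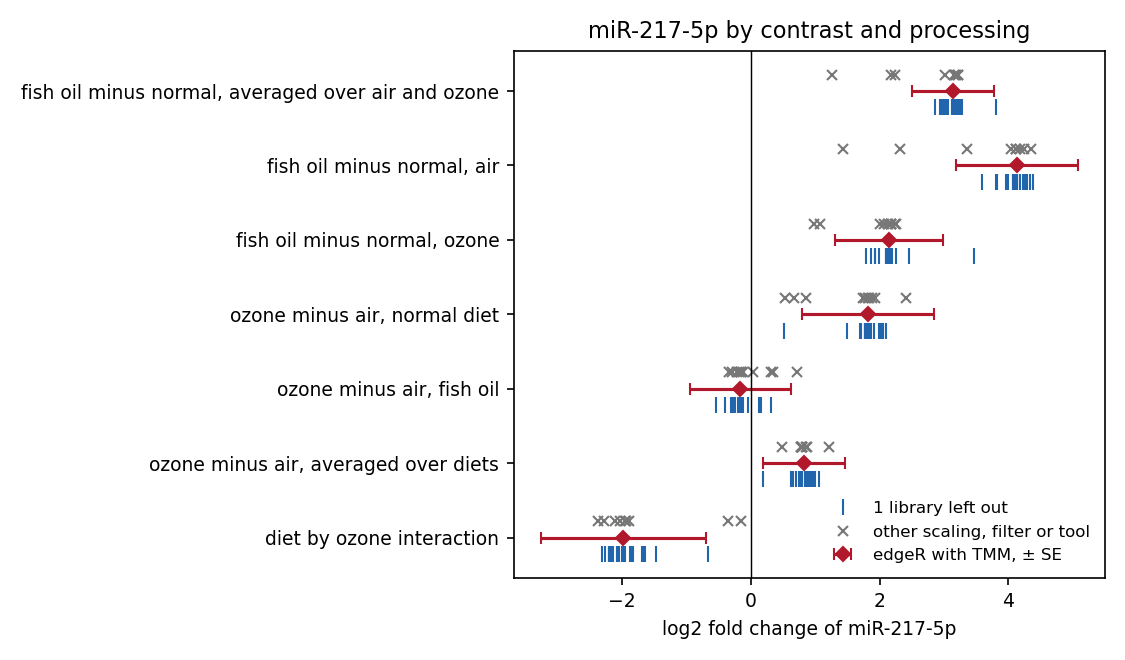
Log2 fold change of miR-217-5p in each contrast; diamonds with bars are the edgeR estimate ± SE, crosses are other scalings, filters, tools and tests, and ticks are fits with 1 library left out. All diet values are above 0, while ozone on fish oil lies on both sides of 0 and the lone tick near +0.5 for ozone on the normal diet is the fit without normal ozone 5.

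MiR-216a-5p, whose listed start lies 7413 bases before that of miR-217-5p on rn5, was seen in the same libraries. It was counted in 14 of 23 libraries, with 53 counts in all, and each of these 14 also held miR-217-5p, with at least 3 counts. In no library did miR-216a-5p outnumber miR-217-5p. Among the 10 libraries with at least 10 miR-217-5p counts, 9 held miR-216a-5p. Among the 12 libraries with fewer than 5, 4 did. Of the former 10 libraries, 9 were from fish oil rats, so this split nearly repeats the split by diet. It cannot tell whether the 2 RNAs go together between libraries apart from diet. Counts of miR-216a-5p were 7, 2, 2, 4 and 1 in fish oil ozone, 0, 6, 0, 4, 3 and 10 in fish oil air, 0, 0, 0, 1, 4 and 6 in normal ozone, and 0, 0, 0, 1, 0 and 2 in normal air. Normal ozone 5 and 6, the highest of their group for miR-217-5p, were also the highest for miR-216a-5p. Fish oil air 6 had the most counts of both, but by CPM miR-216a-5p was highest in fish oil air 2, followed by fish oil ozone 1 at 215 CPM and fish oil air 6 at 159 CPM.

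Of the summed reads of both RNAs, miR-216a-5p made up 14.7% in fish oil ozone (exact binomial interval 8.63 to 22.7%), 11.9% in fish oil air (7.67 to 17.3%), 19.3% in normal ozone (10.0 to 31.9%) and 20% in normal air (4.33 to 48.1%). These intervals overlap, and they treat reads of several rats as one sample. MiR-216a-5p lay under the low-count filter and was fitted only with all 440 counted miRNAs. In that unfiltered fit it rose with fish oil averaged over exposures, by +2.32 (SE 0.61, edgeR adjusted p = 0.00266). The 7.73% of miRNAs called higher in that fit include it. It had 39 counts on fish oil and 14 on the normal diet. It shares a cluster and libraries with miR-217-5p, which was selected for this diet difference, so its diet p-values are not independent of that selection. The call held with each library left out (highest edgeR adjusted p = 0.0199) and ended with the larger read total (+1.31, edgeR adjusted p = 0.165).

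In air alone miR-216a-5p rose by +3.10 (SE 0.91, edgeR adjusted p = 0.0303). It was among the 4 miRNAs of 440 called higher there (0.909%). That call ended without fish oil air 2, 4, 5 or 6 or normal air 1, 2, 3 or 5, with edgeR adjusted p from 0.0565 to 0.152. It also ended with the larger read total (+2.31, edgeR adjusted p = 0.163), and the value was +3.86 without normal air 6. In ozone its diet value was +1.55 (SE 0.83, edgeR adjusted p = 0.265), beside 4.32% called higher. That value was +2.35 without normal ozone 6 and +0.32 with the larger read total, and it passed in neither. For ozone minus air, miR-216a-5p stood at +0.12 (SE 0.79) on fish oil and +1.67 (SE 0.96) on the normal diet, with edgeR adjusted p = 1 and 0.711. The remaining arms were almost unseen: miR-216a-3p had 6 counts, 5 of them in fish oil air 6, miR-216b-5p had 2, both in fish oil air 6, and miR-216b-3p had 0.

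**Figure D3:**
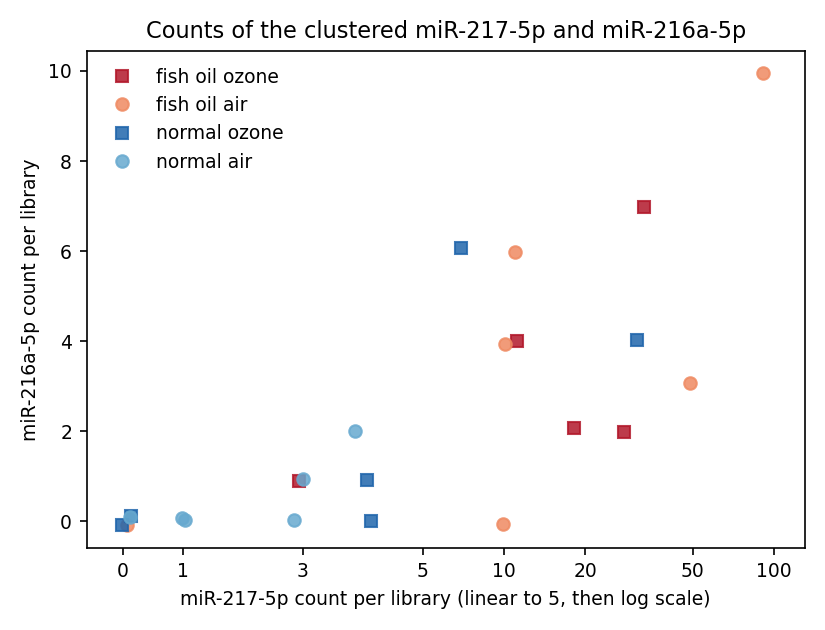
Counts per library of miR-217-5p (horizontal, linear to 5 and logarithmic above) and miR-216a-5p (vertical, linear), with points moved by less than 0.2 counts so that they do not hide each other. Libraries with 10 or more miR-217-5p counts hold 2 to 10 miR-216a-5p counts, apart from fish oil air 3, which holds 0.

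The exocrine pancreas list held 7 other names, of which 2 were tested, and 0 of 2 passed for fish oil averaged over exposures, beside the 36.8% of all miRNAs that passed. MiR-148a-3p, abundant in acinar cells and in many other tissues, stood at −0.24 (SE 0.17, edgeR adjusted p = 0.263), with means of 1902 CPM in fish oil ozone, 2087 in fish oil air, 2391 in normal ozone and 2320 in normal air. MiR-148a-5p, its other arm, stood at −0.45 (SE 0.35, edgeR adjusted p = 0.341). With the larger read total both were called lower on fish oil (edgeR adjusted p = 0.00648 and 0.0224), on a scale whose median had moved to −0.87 and on which 51.5% of all 136 miRNAs were called lower and 0.735% higher. The list summed without miR-217-5p ran from 1400 to 3189 CPM in fish oil ozone, 1803 to 2895 in fish oil air, 2051 to 3193 in normal ozone and 1827 to 3065 in normal air, and these ranges, made up mostly of miR-148a-3p, overlap. Only 2 of the 7, miR-217-3p and miR-216b-3p, were at 0 in all libraries.

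The list for the islets, the endocrine part of the pancreas, held 8 names, of which 2 were tested and 0 passed for fish oil averaged over exposures. MiR-375-3p, the main islet miRNA, which also occurs in other neuroendocrine cells and in gut epithelium, stood at −0.40 (SE 0.23, edgeR adjusted p = 0.161), and miR-182 at +0.23 (SE 0.25, edgeR adjusted p = 0.518). With the larger read total miR-375-3p was called lower (−1.36, edgeR adjusted p = 0.00360), beside 51.5% of all 136 called lower. For ozone averaged over diets miR-375-3p was the single miRNA called among the 136 (0.735%), at +0.90 (SE 0.23, edgeR adjusted p = 0.0462), while miR-217-5p was not called. Its mean was 1781 CPM in fish oil ozone and 1005 in fish oil air, and 2500 in normal ozone and 1251 in normal air. Leaving out single libraries ended that call in 18 of 23 fits, with edgeR adjusted p from 0.0135 to 0.215, and 6 of 9 other settings ended it too. The list sum ran from 1878 to 3539 CPM in fish oil ozone, 1038 to 2132 in fish oil air, 1942 to 4840 in normal ozone and 1566 to 2526 in normal air.

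In the liver list 3 of 5 were tested: miR-192-5p fell by 0.62 (SE 0.19, edgeR adjusted p = 0.0118) and 2 did not pass, miR-122-5p (−1.02, edgeR adjusted p = 0.0665) and miR-194-5p (−0.39, edgeR adjusted p = 0.431), with a list median of −0.62 beside +0.06 for all miRNAs. The call of miR-192-5p, abundant in liver and gut, held with each library left out, whereas miR-122-5p, the main hepatocyte miRNA, passed in 7 of 23 such fits. MiR-122-5p also passed with DESeq2 and limma. With the larger read total miR-122-5p (−1.92, edgeR adjusted p = 0.000234) and miR-194-5p (−1.46, edgeR adjusted p = 0.0161) were called lower. On that scale 51.5% of all 136 were called lower. In air miR-192-5p fell by 1.08 (SE 0.26, edgeR adjusted p = 0.0120), beside 5.15% of all miRNAs called lower. There miR-122-5p also fell, by 2.06 (SE 0.61, edgeR adjusted p = 0.0472). The call of miR-122-5p in air ended without fish oil air 2, 4, 5 or 6, normal air 2, 5 or 6, or normal ozone 6 (highest edgeR adjusted p = 0.103). In ozone their diet values were −0.15 (SE 0.27) and +0.01 (SE 0.61), and neither passed. In the gut and epithelium list 3 were tested and 0 passed, miR-200a-3p (+0.46), miR-141-3p (+0.38) and miR-429 (−0.03). In ozone miR-200a-3p rose with fish oil, by +1.11 (SE 0.33, edgeR adjusted p = 0.0137), beside 12.5% of all miRNAs called higher, and in air it stood at −0.19 (SE 0.32, edgeR adjusted p = 0.748). That call ended without fish oil ozone 3 or 5 or normal ozone 1 (highest edgeR adjusted p = 0.0940) and with the larger read total. With 0 of 136 interactions called by edgeR, these diet values were not shown to differ between air and ozone. Across the pancreas and digestive lists, 1 of 10 tested miRNAs besides miR-217-5p passed for the average over exposures, and it was lower on fish oil, beside 36.8% of all miRNAs that passed and 16.9% that were lower. With the larger read total 6 of the 10 passed, beside 52.2% of all 136.

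Blood cell miRNAs are given because they can enter serum when cells break during or after the draw. In the erythrocyte list 2 of 4 tested rose with fish oil averaged over exposures, miR-144-3p (+0.98) and miR-144-5p (+1.32), and 2 did not pass, miR-451-5p (+0.58) and miR-16-5p (+0.06). Over all 136 miRNAs 19.9% rose. The call of miR-144-3p ended in 11 of 23 fits with 1 library left out. The list sum ran from 10712 to 24076 CPM in fish oil ozone, 15312 to 23028 in fish oil air, 10826 to 20424 in normal ozone and 12509 to 19693 in normal air. In the leukocyte and platelet list 1 rose, miR-126a-3p (+1.06), 2 fell, miR-191a-5p (−1.54) and miR-223-3p (−0.80), and 2 did not pass, miR-142-5p (+0.08) and miR-150-5p (+0.22), beside 19.9% of all miRNAs that rose and 16.9% that fell. The call of miR-223-3p ended without fish oil ozone 5, normal air 3 or normal ozone 6 (highest edgeR adjusted p = 0.0829). It also ended with the total miRNA count as library size, and with that total taken without the 5 most abundant miRNAs. The 3 calls of higher levels in these lists ended with the larger read total. None of these markers was at 0 in all libraries. The erythrocyte index, log2 of miR-451-5p over miR-23a-3p, showed little relation to miR-217-5p across the 23 libraries (Spearman rho 0.04, and −0.06 after group means were subtracted). The part of blood cell RNA in the level of miR-217-5p was not tested beyond that.

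Among miRNAs of like mean level over all libraries, miR-217-5p had a wide spread pooled within groups. The 3 tested miRNAs just above it in mean level, miR-1839-5p, miR-345-3p and miR-155-5p, and the 3 just below, miR-185-5p, miR-133a-3p and miR-27a-5p, had diet values from −0.80 to +0.33, and 1 of the 6 passed, miR-185-5p, which fell (edgeR adjusted p = 0.0300, and 0.0572 without normal ozone 5), beside 36.8% of all 136 that passed. The call of miR-185-5p also ended with the total miRNA count as library size, and with that total taken without the 5 most abundant miRNAs. The SD of log2 CPM pooled within groups was 1.35 for miR-217-5p and 0.45 to 1.01 for the 6 neighbours in level. Its median over the 136 was 0.53. Only miR-1-3p, a striated muscle miRNA, had a higher pooled SD, 1.36. By group the SD of miR-217-5p was 1.14 in fish oil ozone, 1.88 in fish oil air, 1.41 in normal ozone and 0.57 in normal air. Its mean level was 579 CPM on fish oil and 77.6 CPM on the normal diet, so the match in abundance does not hold within either diet.

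**Figure D4:**
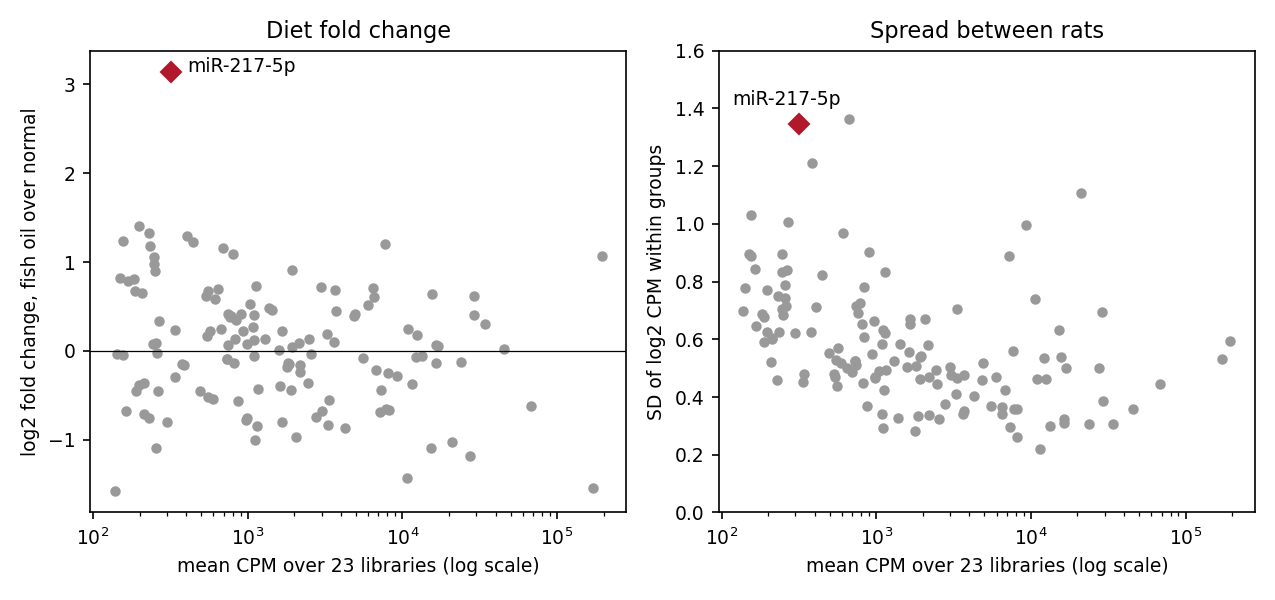
Each of the 136 tested miRNAs by mean CPM over 23 libraries (log axis), with its log2 fold change for fish oil over normal diet averaged over exposures (left) and its SD of log2 CPM within the 4 groups (right). The diamond is miR-217-5p, at +3.14 with an SD of 1.35; all other fold changes are at or below +1.41.

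The 5 miRNAs whose log2 CPM was most like that of miR-217-5p over all 23 libraries were miR-126a-5p (Spearman rho 0.69), miR-23b-3p (0.67), miR-101a-3p (0.65), miR-30e-5p (0.63) and miR-205 (0.62). The 135 other miRNAs ranged from −0.73 to 0.69 with a median of 0.0005. Their diet values, +0.64 to +1.18, are given with no test, because likeness to a miRNA that was itself selected for its diet difference favours miRNAs that differ the same way. After group means were subtracted their rho was 0.30 to 0.35. The 5 most alike within groups were others: miR-155-5p (0.48), miR-375-3p (0.42), miR-186-5p (0.41), miR-203a-3p (0.41) and miR-148a-3p (0.39). These rho come from few reads of miR-217-5p, and the libraries share depth and scaling, so they describe these libraries only. Within groups miR-217-5p also moved with the miRNA share of the larger read total (rho 0.42) and against that total itself (−0.34). Over all 23 libraries these rho were −0.32 and −0.11. With the miRNA total, which was lower on fish oil, rho was −0.47 over all libraries and 0.05 within groups. The part of these measures in the level of miR-217-5p was not tested.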

How the data were processed

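Small RNA libraries were made from 10 ng of RNA with a kit that adds no stated molecular identifier and read for 50 cycles, per the labels' protocols. The submitters' processing notes name bcl2fastq, Partek, Bowtie 1.0.0 and build rn5; annotation, filters and the handling of reads that match several loci are not stated there. The authors deposited expected counts per mature miRNA locus, some not whole, and RPM values per miRNA. Each RPM equals the summed count over 1 total per library plus 0.0001; this implied read total was 2243920 to 7729950, and it is the larger read total of the report.

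Loci of 1 name were summed and rounded; miR-217-5p has 1 locus. In R 4.3.3, edgeR 4.0.16 (filterByExpr, minimum count 10 and total 15; TMM; robust quasi-likelihood F test, 1 mean per group, two-sided) was fitted to the 23 libraries and checked on simulated counts. Adjustment was by Benjamini-Hochberg over 136 miRNAs, threshold 0.05; rose and fell mean past it. Each edgeR SE was worked back from the test, as the size of the log2 value divided by the square root of its F statistic. Log2 CPM used a prior count of 2. DESeq2 1.42.0 and limma 3.58.1 (log2 RPM plus 1 or 0.1) were alternatives. The p-values measure the spread between rats. Libraries were matched by animal number, which pairs no rats and runs in blocks by group, so a batch along those numbers and the groups cannot be told apart. Members, lists and tests were chosen with earlier results of these data known. Named miRNAs were the cluster, list members past the filter, the 5 most correlated and the 6 nearest in abundance; miR-10b-5p, miR-1-3p, miR-22-3p and miR-324-3p were named after their values were seen. List names miR-215 and miR-486 were not matched.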

Additional observations from a re-analysis of the deposited data

Results flagged for a closer look

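Normal ozone 5 stood far from the other 5 libraries of its group for miR-217-5p, by a gap test against the group's range. Its count was 31 against at most 7 in the others, its level 485 CPM against at most 126 CPM, and its RPM 10.9 against at most 3.12. These are 3 scales of 1 measurement. On the log2 CPM scale the same library did not stand apart by this test. The test was run on 32 combinations of group and measure, which share libraries. Chance flags about 1 in 20 where values are normally distributed, a rate that need not hold for small counts with zeros.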

How the results depend on the processing

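No paired analysis was possible because animal numbers differ between groups. For miR-217-5p, all 3 diet values stayed positive in every fit run. Averaged over exposures the value was 1.26 with limma on log2 RPM plus 1, and in air it was 1.44 with a pseudocount of 1 and 2.32 with 0.1; a larger pseudocount shrinks low values by construction. With 1 library left out the values ran from 2.86 to 3.80 averaged, 3.60 to 4.38 in air and 1.79 to 3.47 in ozone. Ozone on fish oil turned positive with the implied read total (0.028), limma (0.31 and 0.71) and the permutation test (0.34), and ran from −0.54 to 0.32 with 1 library left out; the cause was not tested. No alternative took an ozone or interaction value of miR-217-5p past the threshold (adjusted p 0.654 to 1.0). When a fit held just the 2 groups compared, miR-217-5p fell under the filter for diet in air and for ozone on the normal diet and had no value.

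Mean levels with the implied read total are RPM: 4.80 in fish oil ozone, 4.58 in fish oil air and 0.491 in normal air. MiRNAs called for diet in air, 8 as reported, were 14 with total counts, 38 with the implied read total, 15 with DESeq2, 15 without the 5 most abundant miRNAs, 32 and 31 with limma, and 3 to 15 with 1 library left out. In ozone, 31 as reported, they were 48 and 49 with limma, and 12 to 34. For ozone on the normal diet DESeq2 called 1, and 0 to 1 were called with 1 library left out. For ozone averaged over diets the 1 call became 0 with RLE factors, total counts, the implied read total, limma or without the 5 most abundant, and 0 to 1 with 1 library left out. Pancreas and digestive members called, 1 of 10 as reported, were 6 with the implied read total, 2 with DESeq2, and 6 and 5 with limma. With 1 library left out they were 1 to 2. All miRNAs called for diet averaged over exposures were 50 as reported, 71, 59, and 71 and 70 in those settings, and 43 to 56 with 1 library left out. The unfiltered fit called 4 members, beside 60 of all 440 miRNAs. It also covers members under the filter, among them miR-216a-5p, so that 4 is not comparable with the 1. Few reads limit every value of miR-217-5p.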
